A study of Mus musculus with 6 samples.

Results

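Genes that write, copy, erase and read DNA methylation were examined in mouse cells named female germline stem cells (FGSCs), with and without CTCF knockdown. The 9 genes were listed by symbol, with earlier results of these data known. They were Dnmt1, Dnmt3a, Dnmt3b, Dnmt3l, Uhrf1, Tet1, Tet2, Tet3 and Mbd2, out of 24732 gene symbols with an expression value. RNA-seq had been made for 3 control samples and for 3 samples in which CTCF, a DNA-binding protein that shapes chromatin loops and domains, was knocked down with a short hairpin RNA (shCTCF). All 6 samples were named FGSCs, of strain C57BL/6 at more than 20 passages. They were grown over mitotically inactivated STO feeder cells, a mouse fibroblast line. Levels of marker genes are given below. Per the study's methods the hairpin was delivered by lentivirus, a single hairpin sequence was used and infected cells were selected with puromycin. The labels name the other group control only. Nothing in the labels says that the replicates were separate cultures, so the p-values below measure the spread between these samples, which may be technical.

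In mammals a methyl group is placed on cytosine, mostly at CpG sites, by the DNA methyltransferases. Dnmt3a and Dnmt3b methylate new sites, Dnmt3l is a partner without catalytic activity that stimulates them and is needed for imprints in germ cells, and Dnmt1 copies the pattern to the new strand after replication. Uhrf1 binds the hemimethylated DNA left by replication and brings Dnmt1 to it. The Tet enzymes oxidise methylcytosine and thereby start its removal, and Mbd2 binds methylated CpGs and is a subunit of the repressive NuRD complex. In germ cells methylation is erased in the embryo and placed anew later, which in the female takes place in growing oocytes.

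After CTCF knockdown the transcripts of all 3 catalytic DNA methyltransferases were lower. Dnmt1 was 3.72-fold lower, Dnmt3a 2.41-fold and Dnmt3b 7.62-fold, as ratios of the group means of FPKM (fragments scaled to transcript length and to the number of mapped fragments). Uhrf1 and Tet3 fell by less, by 34.4% and 29.8%. Mbd2 rose 1.64-fold. Dnmt3l rose 2.03-fold from low levels, a call that rested on single libraries. Tet2 showed no detectable difference, and Tet1 was near 0 in every sample. Within Mbd2 the long transcript rose while a short transcript, which ends in an exon of its own, fell.

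The expression data gave the following frame for these genes. Total counts lay between 5322636 and 7044272 fragments in 5 samples and were 1686052 in control replicate 2. Ctcf itself went from 58.2, 56.1 and 53.5 FPKM in the controls to 0.74, 0.55 and 0.629 FPKM in the shCTCF group (log2 fold change -5.12, SE 0.09, limma adjusted p = 1.1e-08). Ddx4, Dazl, Pou5f1, Dppa3 and Gfra1, 5 of 8 genes listed as FGSC markers, were listed at 0 FPKM in every control and at most at 0.18 FPKM in the shCTCF group, so these 5 defining genes were at or near 0. Of the other 3, Etv5 had means of 17.3 and 14.2 FPKM in the controls and the shCTCF group, Zbtb16 had 1.56 and 0.288 FPKM, and Ifitm3 rose from 0.737 to 10.8 FPKM (limma adjusted p = 4.6e-05). Kit, Gata2 and the pan-leukocyte gene Ptprc, from a list of 16 haematopoietic and mast cell markers, had control means of 575, 501 and 104 FPKM. The summed level of that list was 1930 to 2016 FPKM in the controls and 3163 to 3300 FPKM in the shCTCF group. Of the 16 genes 11 were tested, with 7 higher and 1 lower, where over all genes tested 28.8% were higher and 44.2% lower. The lower one was Cpa3, which fell from a mean of 281 to 88.0 FPKM. In the same list 5 genes were below 1 FPKM in all samples, namely Ms4a2, Tpsb2, Mcpt4, Cd34 and Fcer1a, the last at 0 in every sample. For 16 fibroblast markers of the feeder layer the summed level was 104 to 132 FPKM in the controls and 149 to 196 FPKM in the shCTCF group, mostly from S100a4. Col1a1, Col1a2 and Col3a1, which define fibroblasts, were at or below 0.11 FPKM in all samples. Of 6 feeder markers tested on FPKM 4 were higher and 2 lower, to be read beside the same shares, and of 5 tested on counts all were higher. On counts 69.1% of all genes tested differed in either direction. Col6a1, another collagen gene, rose from a mean of 0.144 to 15.3 FPKM (limma adjusted p = 6.7e-08), Pdgfra and Thy1 rose with log2 fold changes of 1.31 and 1.14, and Pdgfrb fell by 1.16 on the log2 scale. A test on FPKM needed a mean of 1 FPKM. Ifitm3, Col6a1, Thy1 and, in the haematopoietic list, Tpsab1 had control means below 1 FPKM and reached it through the shCTCF group. Dcn, with a mean of 2.71 FPKM in the controls, was listed at 0 in every shCTCF sample. Most of the listed markers of the named cell type were thus at or near 0, while several haematopoietic genes were high. The identity of the cells was not tested. The part of these differences between the groups in the results below was not tested either. In bulk RNA, fewer cells of a type and less RNA per cell cannot be told apart.

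The DNA just upstream of start sites that were given FPKM is shown for the genes that fell together at the level of copying and writing. Tet2 is shown as the gene without a detectable difference. The 250 bases before each start are from the RefSeq promoter table, which held 15 start sites of 8 of the 9 genes, and all 15 windows were found once in the build of the files, mm9. In mm9 the windows are chr9:20757424-20757673 on the minus strand for Dnmt1, chr17:56442510-56442759 and chr17:56443486-56443735 on the plus strand for both start regions of Uhrf1, chr12:3806730-3806979 on the plus strand for Dnmt3a, chr2:153474935-153475184 on the plus strand for Dnmt3b and chr3:133207355-133207604 on the minus strand for Tet2. Each is written 5′ to 3′ along the gene and ends at the base before the start. Capitals mark, on either strand, the letters TTTNNCGC of E2F-type sites, those of the CCAAT box as its name spells them, and GGGCGG of the GC box.
Dnmt1: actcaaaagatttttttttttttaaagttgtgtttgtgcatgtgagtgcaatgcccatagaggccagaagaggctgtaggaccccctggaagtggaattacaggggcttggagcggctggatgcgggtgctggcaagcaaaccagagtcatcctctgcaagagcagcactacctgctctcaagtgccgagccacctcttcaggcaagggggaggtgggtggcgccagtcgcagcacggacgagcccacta
Uhrf1 upstream start: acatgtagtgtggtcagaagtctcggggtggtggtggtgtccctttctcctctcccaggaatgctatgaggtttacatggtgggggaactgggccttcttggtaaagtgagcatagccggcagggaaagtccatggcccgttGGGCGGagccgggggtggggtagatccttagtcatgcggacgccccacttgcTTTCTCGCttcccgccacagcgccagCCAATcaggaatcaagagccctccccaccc
Uhrf1 downstream start: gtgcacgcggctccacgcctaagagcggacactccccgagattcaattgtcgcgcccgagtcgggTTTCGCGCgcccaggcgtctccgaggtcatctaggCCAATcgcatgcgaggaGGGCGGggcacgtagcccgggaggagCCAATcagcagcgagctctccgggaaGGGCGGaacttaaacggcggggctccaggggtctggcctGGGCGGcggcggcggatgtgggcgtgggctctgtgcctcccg
Dnmt3a: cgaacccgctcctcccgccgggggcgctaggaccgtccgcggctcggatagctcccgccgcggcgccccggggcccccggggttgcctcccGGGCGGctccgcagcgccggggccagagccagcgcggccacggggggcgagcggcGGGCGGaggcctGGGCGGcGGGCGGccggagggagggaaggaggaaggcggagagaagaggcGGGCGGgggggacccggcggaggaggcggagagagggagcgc
Dnmt3b: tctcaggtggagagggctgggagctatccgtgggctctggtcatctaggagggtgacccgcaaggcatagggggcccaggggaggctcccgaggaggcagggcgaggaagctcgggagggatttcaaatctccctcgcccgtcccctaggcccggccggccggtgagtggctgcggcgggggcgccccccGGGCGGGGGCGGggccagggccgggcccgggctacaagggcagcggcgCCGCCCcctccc
Tet2: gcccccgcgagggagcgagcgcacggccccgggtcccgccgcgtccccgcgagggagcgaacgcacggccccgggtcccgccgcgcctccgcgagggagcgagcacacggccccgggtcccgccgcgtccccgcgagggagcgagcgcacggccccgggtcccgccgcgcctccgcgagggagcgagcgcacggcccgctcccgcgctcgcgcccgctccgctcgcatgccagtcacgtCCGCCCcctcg
The 2 windows of Uhrf1 were alike in holding E2F-type letters and a CCAAT box. The upstream one had 1 E2F-type match that began 56 bases before the start and 1 CCAAT box at 30 bases. The downstream one had 1 E2F-type match at 185 bases and 2 CCAAT boxes, at 150 and 107 bases. They also held 1 and 3 GC boxes. Of all 32851 windows of this length 4.28% held the E2F-type letters, 33.8% a CCAAT box and 32.7% a GC box. The window shown for Dnmt1, that of the start which carried most of its FPKM, held none of these letters. The Dnmt1 start 356 bases downstream was listed at 0 FPKM in every sample. It was the only one with fragments in the count table, where it also had the most bases of its own (778). Its window lies between that start and the one shown. This window held 2 E2F-type matches, 3 CCAAT boxes, 2 GC boxes and 26 CpG sites, and is not printed here. That of the upstream Dnmt1 start held 4 CCAAT boxes and 2 CpG sites, so what a Dnmt1 window held depended on the start. The windows of Dnmt3a, Dnmt3b and Tet2 held GC boxes alone among these, with 5, 3 and 1 matches. The letters AGGNGGC, from the core of the CTCF motif, were found on either strand in 8214 of the 32851 windows, with 1 match each for Dnmt1, Dnmt3a and Tet2, 3 for Dnmt3b and none for Uhrf1, and those of Tet2 and the last of Dnmt3b overlapped a GC box. The number of CpG sites was 7 for the Dnmt1 window shown, 10 and 30 for Uhrf1, 38 for Dnmt3a, 21 for Dnmt3b and 51 for Tet2, compared with a median of 6 over all windows. Such matches are descriptions of these letters only.

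Of the 9 genes, 8 had a mean of at least 1 FPKM and were tested with limma on log2(FPKM + 1), a scale that understates the change of low genes. With Benjamini-Hochberg adjustment over all 9976 genes tested and a threshold of 0.05, 7 of these 8 genes were past the threshold, where 73.0% of all genes tested were. Of these, 5 were lower (44.2% of all genes) and 2 were higher (28.8% of all genes). A decrease of at least 2-fold was found for 3 of the 8, Dnmt1, Dnmt3a and Dnmt3b, compared with 14.9% of all genes tested. Of these, Dnmt3b passed the filter through its control values alone, since all its shCTCF values lay below 1 FPKM. Over all genes the median log2 fold change was -0.17, so changes are also given with all samples scaled to the same median. For 3 against 3 values the smallest p of an exact two-sided permutation test is 0.1, and this value was reached by each of the 7 genes. The share of all genes that reached it was not determined, so it is not read as a trait of these genes.

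**Figure D1:**
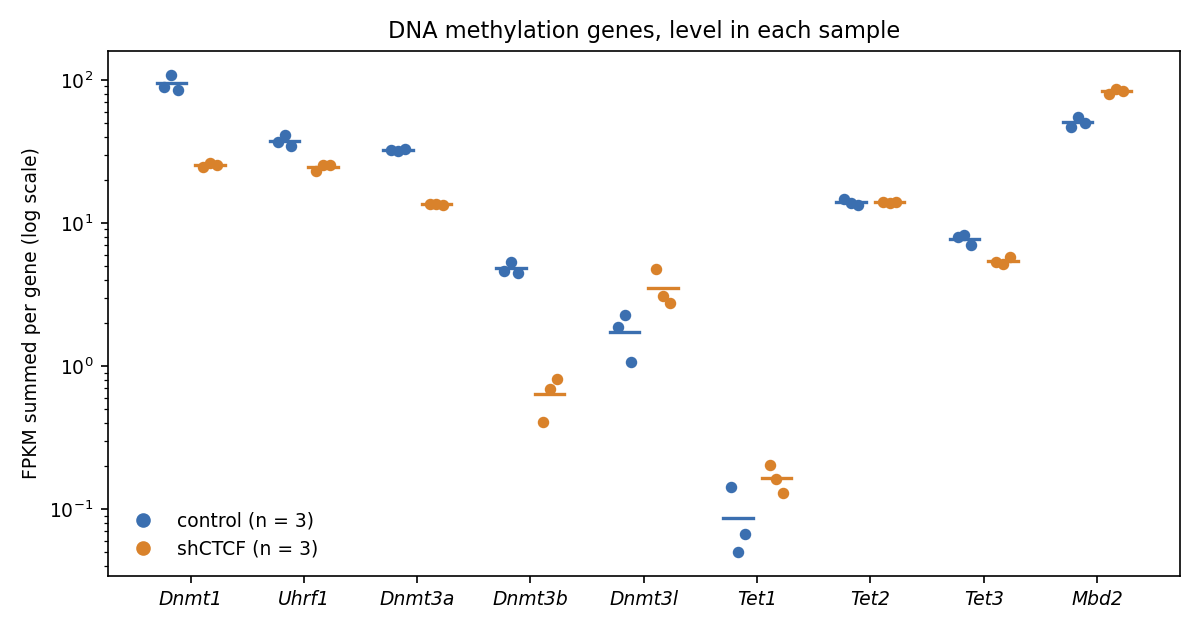
FPKM of each gene (log scale, summed over its transcript accessions) in the 3 control samples (blue) and the 3 shCTCF samples (orange). Points are samples and lines are group means. The groups do not overlap for 7 genes and overlap for Tet1 and Tet2. The share of all genes without overlap was not determined.

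Dnmt1, the maintenance methyltransferase, was the most abundant of the 9 genes in the controls. It lies on the minus strand of mm9 chromosome 9 from 20711650 to 20764332. Its level was 89.0, 109 and 85.3 FPKM in control replicates 1, 2 and 3 and 24.5, 26.2 and 25.4 FPKM in the shCTCF replicates. All shCTCF samples were low, and they lay closer together than the controls. The mean fell from 94.3 ± 12.6 to 25.4 ± 0.836 FPKM (SD, n = 3 each). This was a log2 fold change of -1.85 (SE 0.10, limma adjusted p = 1.9e-06) and of -1.67 with scaling to the same median.

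Uhrf1, which guides Dnmt1 to newly replicated DNA, lies on the plus strand of chromosome 17 from 56442760 to 56462909. It was at 37.0, 41.4 and 34.3 FPKM in the controls and at 23.0, 25.4 and 25.6 FPKM in the shCTCF group. Every shCTCF sample was below every control. The log2 fold change was -0.59 (SE 0.09, limma adjusted p = 0.00054), and it was -0.41 with scaling to the same median. The ratio of Dnmt1 to Uhrf1 was 2.40, 2.62 and 2.49 in the controls, compared with 1.07, 1.03 and 0.993 in the shCTCF group, so that the Dnmt1 level, which had exceeded that of its guide in the controls, was close to it after knockdown.

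Dnmt3a, a de novo methyltransferase, lies on the plus strand of chromosome 12 from 3806980 to 3914443. Its values were nearly equal within each group, with 32.5, 31.9 and 32.9 FPKM in the controls and 13.5, 13.5 and 13.4 FPKM in the shCTCF group. The log2 fold change was -1.21 (SE 0.06, limma adjusted p = 1.9e-06), and it was -1.04 with scaling to the same median. Dnmt3b, the second de novo enzyme, lies on the plus strand of chromosome 2 from 153475185 to 153513466 and was much lower, with 4.64, 5.36 and 4.49 FPKM in the controls and 0.408, 0.687 and 0.806 FPKM in the shCTCF group. It passed the filter through its control values, since all shCTCF values lay below 1 FPKM. Its log2 fold change was -1.84 (SE 0.14, limma adjusted p = 1.0e-05), with scaling to the same median it was -1.73, and with a pseudocount of 0.01 in place of 1 it was -2.96.

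Dnmt3l, the stimulating partner of the de novo enzymes, lies on the plus strand of chromosome 10 from 77505032 to 77526367 and moved in the other direction from low levels. It was at 1.88, 2.26 and 1.07 FPKM in the controls and at 4.74, 3.10 and 2.74 FPKM in the shCTCF group, where replicate 1 stood above the others. The log2 fold change was 0.73 (SE 0.22, limma adjusted p = 0.018), and it was 0.86 with scaling to the same median. This call rested on single libraries. The adjusted p was 0.052 without control replicate 3 and 0.063 without shCTCF replicate 1, with log2 fold changes of 0.54 in both.

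The 3 Tet genes differed in level and in direction. Tet2, on the minus strand of chromosome 3 from 133126641 to 133207354, was the most abundant, with 14.7, 13.8 and 13.2 FPKM in the controls and 13.96, 13.7 and 14.03 FPKM in the shCTCF group. These values overlapped, and the log2 fold change was 0.00 with a 95% interval from -0.17 to 0.17 (limma adjusted p = 0.99). With scaling to the same median it was 0.17 (adjusted p = 0.069). Tet3, on the minus strand of chromosome 6 from 83312368 to 83406386, had 8.01, 8.21 and 7.03 FPKM in the controls and 5.34, 5.19 and 5.81 FPKM in the shCTCF group. It was lower in all 3 samples, with a log2 fold change of -0.44 (SE 0.10, limma adjusted p = 0.0038), which was -0.28 with scaling to the same median (adjusted p = 0.030).

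Tet1, on the minus strand of chromosome 10 from 62267318 to 62350072, was near 0, with 0.142, 0.0503 and 0.0666 FPKM in the controls and 0.204, 0.162 and 0.13 FPKM in the shCTCF group. It was below the FPKM filter, and without the filter its limma adjusted p was 0.11. As a gene with 1 accession it could be read from the counts, where it had 22, 2 and 12 fragments in the controls, compared with 34, 22 and 29 in the shCTCF group. The control with 2 fragments was the smallest library. In edgeR's quasi-likelihood test the log2 fold change was 1.18 (SE 0.36, adjusted p = 0.011). This call was lost without control replicate 3 (0.93, adjusted p = 0.067) and without shCTCF replicate 1 (1.02, adjusted p = 0.056).

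Mbd2, the methyl-CpG reader of NuRD, lies on the plus strand of chromosome 18 from 70727946 to 70785785. Its level was 47.1, 54.7 and 50.3 FPKM in the controls and 79.97, 86.2 and 83.6 FPKM in the shCTCF group, so that all shCTCF samples were high. The log2 fold change was 0.71 (SE 0.07, limma adjusted p = 6.7e-05), and it was 0.89 with scaling to the same median. After knockdown Mbd2 was the most abundant of the 9 genes. The ratio of Mbd2 to Dnmt1 rose from 0.541 ± 0.044 to 3.28 ± 0.0174 (SD, n = 3 each) without overlap between the groups.

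**Figure D2:**
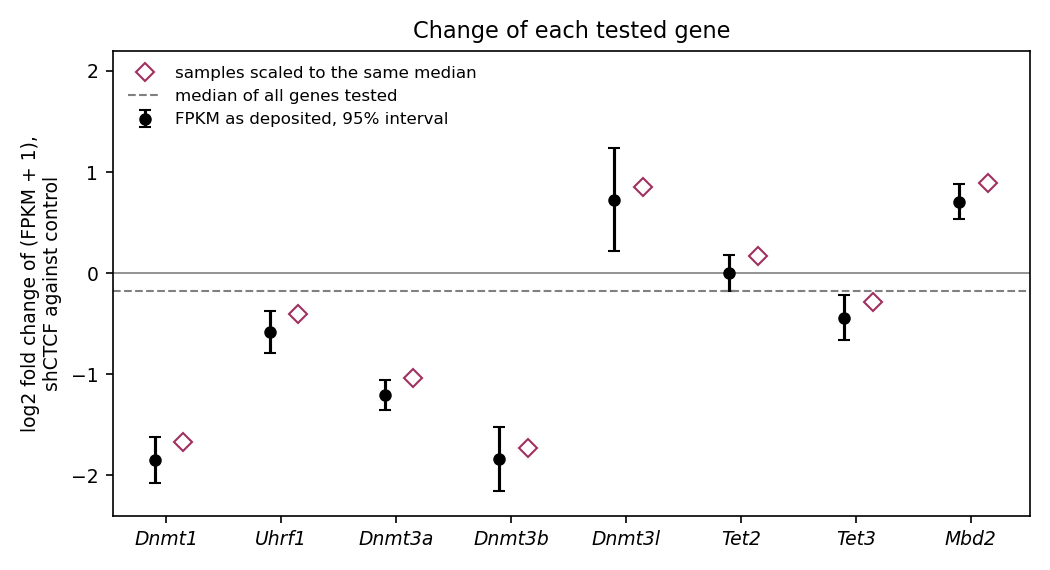
Log2 fold change of (FPKM + 1), shCTCF against control, for the 8 genes tested. Filled circles with bars give the value as deposited with its 95% interval from limma, open diamonds the value with all samples scaled to the same median, and the dashed line the median of all genes (-0.17). Tet2 alone has an interval that spans 0.

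The order of the levels changed accordingly. In the controls it was Dnmt1, Mbd2, Uhrf1, Dnmt3a, Tet2, Tet3, Dnmt3b, Dnmt3l and Tet1 from high to low, and no neighbours overlapped in their sample values. In the shCTCF group it was Mbd2, Dnmt1, Uhrf1, Tet2, Dnmt3a, Tet3, Dnmt3l, Dnmt3b and Tet1. There Dnmt1 and Uhrf1 overlapped. Tet2 and Dnmt3a, which had means of 13.9 and 13.5 FPKM, were adjacent without overlap. The summed FPKM of Dnmt1, Dnmt3a and Dnmt3b was 126, 146 and 123 in the controls, compared with 38.4, 40.4 and 39.6 in the shCTCF group, whereas that of the 3 Tet genes was 22.8, 22.0 and 20.3 compared with 19.5, 19.0 and 20.0. The ratio of the sums was 6.06 ± 0.549 in the controls and 2.03 ± 0.0845 in the shCTCF group (SD, n = 3 each).

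The count table gave a second measurement for few of these genes, because fragments over exons shared by several transcript accessions had been left unassigned, and 8 of the 9 genes have several accessions. Dnmt3b, Dnmt3l and Uhrf1 had 0 counts in all samples, and Dnmt1, Dnmt3a and Tet2 had at most 13. These 6 genes were not tested on counts, so their changes rest on the FPKM table. Of the 3 genes tested with edgeR 2 were past the threshold, Mbd2 and Tet1, where 69.1% of all genes tested were. Mbd2 had 601, 160 and 646 counts in the controls, compared with 1008, 996 and 1257 in the shCTCF group, which was 88.0 ± 1.16 compared with 194 ± 7.34 CPM (counts per library size with TMM factors, SD, n = 3 each). In log2 terms this was 1.14 (SE 0.08, edgeR adjusted p = 7.5e-08). Tet3 had 50, 25 and 52 counts in the controls, compared with 31, 31 and 43 in the shCTCF group, with a log2 fold change of -0.41 (SE 0.27, edgeR adjusted p = 0.19), the direction of its change on FPKM.

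Several of the genes have alternative start sites, of which some are known from oocytes, germ cells or embryonic stem cells. The 9 genes had 34 accessions in the FPKM table, of which 13 were at 0 in every sample and 12 had a mean of at least 1 FPKM. Of these 12, 8 were past the threshold with limma, 7 lower and 1 higher, where 52.5% of all accessions tested were. The split of FPKM between accessions that share nearly all exons is an estimate of the authors' software.

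On FPKM Dnmt1 was assigned mostly to its middle start, at position 20757423. This start had 89.0, 75.5 and 85.3 FPKM in the controls and 24.5, 18.3 and 25.4 FPKM in the shCTCF group. That was 69.5% of the gene's FPKM in control replicate 2, 69.9% in shCTCF replicate 2 and all of it in the other samples. The accessions given FPKM there have 0 bases of their own, so the counts cannot check this split. A start 6909 bases upstream was listed at 33.2 FPKM in control replicate 2, at 7.89 FPKM in shCTCF replicate 2 and at 0 in the other 4 samples. The 156 bases that only this accession has (20764177 to 20764332) were assigned 0 fragments in all 6 samples. Fragments that reach shared exons were left unassigned, so the counts cannot check the FPKM listed for that start. The start furthest downstream, with 778 bases of its own, had between 2 and 10 fragments per sample and was listed at 0 FPKM.

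On FPKM Dnmt3a was assigned to its first start alone, as NM_007872. A start 180 bases downstream was listed at 0 FPKM in all samples and had 1 fragment, in shCTCF replicate 2. The accession NM_153743, which begins 84764 bases downstream and encodes the shorter Dnmt3a2 known from embryonic stem cells and germ cells, was listed at 0 FPKM and had 0 fragments in the 117 bases of its own in all 6 samples. The 141 bases that only NM_007872 has were assigned no more than 2 fragments in any sample, although this transcript carried all of the FPKM. Fragments that reach shared exons were left unassigned. The count of 0 over the 117 bases of NM_153743 therefore cannot tell whether that transcript was absent.

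For Uhrf1 the start regions lie 976 bases apart, and both were given FPKM. Its accessions have 0 bases of their own and 0 counts, so the counts cannot check this split. The upstream start had 20.8, 31.1 and 23.6 FPKM in the controls and 11.4, 20.1 and 14.3 FPKM in the shCTCF group, and the downstream start had 16.2, 10.3 and 10.7 compared with 11.6, 5.29 and 11.2 FPKM. The groups did not overlap for the upstream start and overlapped for the downstream one. Of the accessions, NM_010931 of the upstream start was lower (log2 fold change -0.79, limma adjusted p = 0.016), and NM_001111078 of the downstream start was at -0.41 (adjusted p = 0.34).

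On FPKM Dnmt3l was assigned mostly to its most downstream start, at 77518080, except in shCTCF replicate 1, where this start had 43.1%. It had 1.47, 2.26 and 0.951 FPKM in the controls and 2.04, 2.57 and 2.01 FPKM in the shCTCF group, which overlapped. A start 5376 bases upstream of it had 0.408, 0 and 0.115 FPKM in the controls and 2.69, 0.532 and 0.736 FPKM in the shCTCF group, so that the high sum of shCTCF replicate 1 came from this start. When only its most abundant accession, which has 5 exons, was used, the log2 fold change of Dnmt3l was 0.43 (limma adjusted p = 0.19). The starts at 77505032 and 77512587, whose accessions have 14 and 13 exons, were listed at 0 in all samples. Tet3 was read mainly from its upstream start, NM_001347313, whose 835 own bases gave all of its counts.

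**Figure D3:**
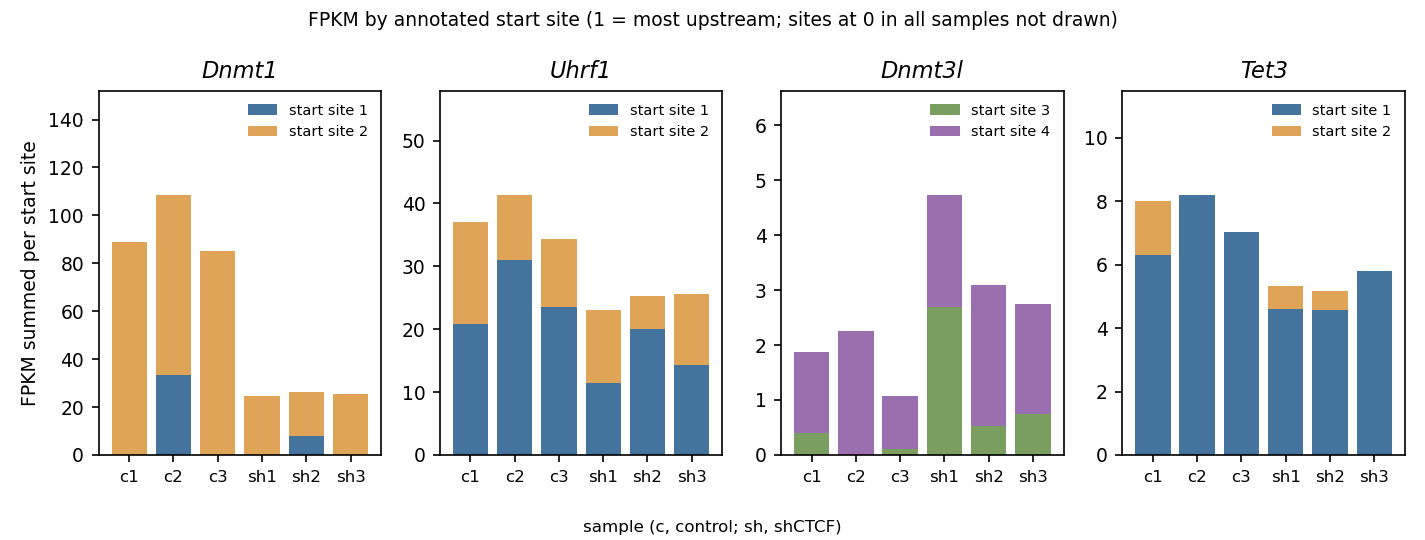
Stacked bars give FPKM summed over the accessions that share a start site, in each of the 3 control (c) and 3 shCTCF (sh) samples, for Dnmt1, Uhrf1, Dnmt3l and Tet3. Start sites are numbered from upstream to downstream, and the upstream start of Dnmt1 has a value above 0 only in replicate 2 of each group.

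For Mbd2 the transcripts could be told apart by counts, because each has exons of its own. Both accessions begin at 70727946. The long one, NM_010773, has 7 exons and 1014 bases of its own, and the short one, NM_001311071, has 3 exons and ends in 500 bases of its own (70742071 to 70742570), 43215 bases before the end of the long one. Fragments of the long accession numbered 496, 131 and 571 in the controls, compared with 994, 982 and 1242 in the shCTCF group, which was 73.9 ± 3.11 compared with 189.9 ± 7.56 CPM (SD, n = 3 each). Those of the short accession numbered 105, 29 and 75 in the controls, compared with 14, 14 and 15 in the shCTCF group, which was 13.8 ± 3.19 compared with 2.56 ± 0.229 CPM. The long accession was thus higher and the short one lower in every shCTCF sample than in every control.

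In edgeR's test over all accessions, where 68.7% were past the threshold, the log2 fold change was 1.36 for the long accession (SE 0.08, adjusted p = 2.7e-08) and -2.38 for the short one (SE 0.27, adjusted p = 7.2e-06). The short accession made up 17.5% (95% exact binomial interval 14.5% to 20.7%), 18.1% (12.5% to 24.98%) and 11.6% (9.24% to 14.3%) of the assigned Mbd2 fragments in the controls. It made up 1.39% (0.761% to 2.32%), 1.41% (0.771% to 2.35%) and 1.19% (0.669% to 1.96%) in the shCTCF group. These intervals cover counting error only. The groups did not overlap, and the exact two-sided permutation test gave p = 0.1, the smallest it allows. On FPKM the short accession was at 9.96, 12.1 and 7.84 in the controls and was listed at 0 in all 3 shCTCF samples, although fragments were counted there, and the long one was at 37.2, 42.6 and 42.4 compared with 79.97, 86.2 and 83.6 FPKM. The sum of the accessions, given above for Mbd2, therefore joins a rise and a fall.

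**Figure D4:**
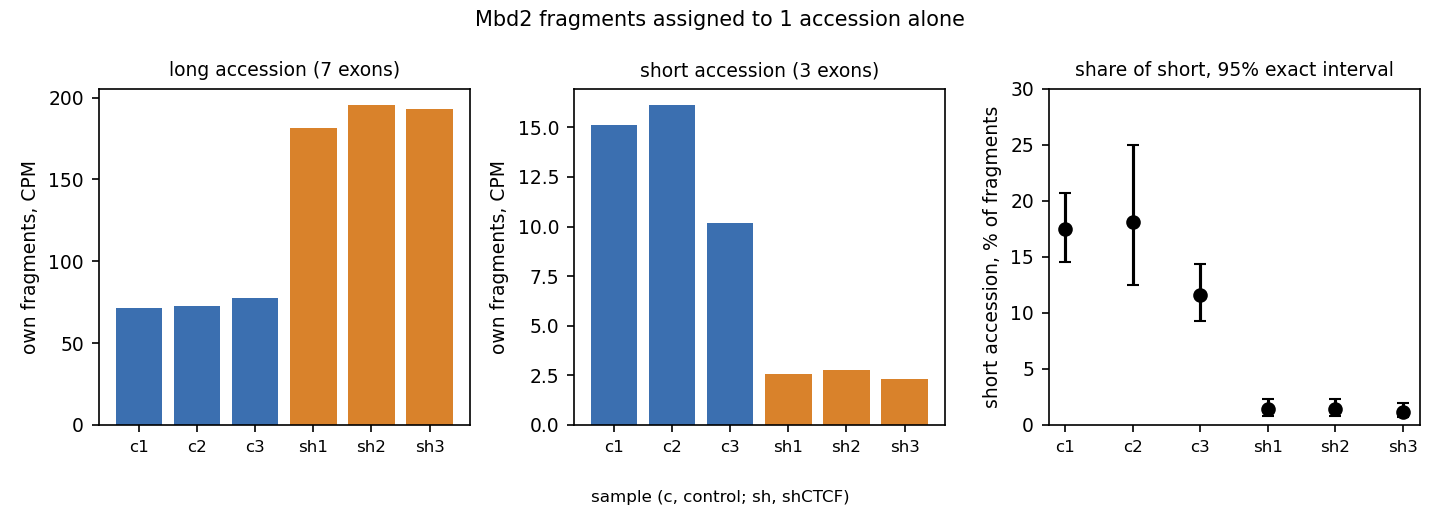
Fragments assigned to the long and to the short Mbd2 accession alone, in CPM, and the share of the short accession in percent with its 95% exact binomial interval, in the 3 control (c, blue) and 3 shCTCF (sh, orange) samples. The share lies between 11.6% and 18.1% in the controls and between 1.19% and 1.41% in the shCTCF group.

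Other genes of the pathway were taken from 8 lists with 113 genes in all. On FPKM 90 were tested with limma and 80 were past the threshold, 22 higher and 58 lower, where over all genes 73.0% were past it, 28.8% higher and 44.2% lower. On counts 58 were tested with edgeR and 48 were past it, 12 higher and 36 lower, where 69.1% of all genes were past it. The counts of each list below are to be read against these shares. Of the genes named below, Mta1, Mbd3, Lig3, Apobec1, Tdg, Shmt2, Ehmt2 and Ccne2 were not tested on counts, so their changes rest on FPKM alone. The medians below are log2 fold changes on FPKM, beside -0.17 for all genes tested.

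Among 8 partners of maintenance methylation 5 were lower and 2 higher, with a median of -0.57. Cdca7, which with the remodeller Hells opens nucleosomal DNA to Dnmt1, fell from 27.7 ± 1.36 to 6.41 ± 0.654 FPKM (SD, n = 3 each). The change was -1.96 on the log2 scale on FPKM (limma adjusted p = 1.1e-06) and -1.94 on counts (edgeR adjusted p = 6.7e-09). Its relative Cdca7l and the Dnmt1-associated protein gene Dmap1 fell by 1.51 and 1.07 on the log2 scale. Pcna, the replication clamp, and Uhrf2, a relative of Uhrf1, were the 2 that rose, with 0.62 and 0.46.

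All 12 NuRD subunits, the complex that Mbd2 joins, were lower on FPKM, where 44.2% of all genes tested were, with a median of -0.80. Mta3, the remodelling ATPase Chd3 and Mta1 had the largest changes, with log2 fold changes of -1.47, -1.30 and -1.01. On counts 9 of 10 tested were lower. Mta3 was the exception, at -0.01 (edgeR adjusted p = 0.99), so its change is uncertain. Of 11 other methyl-CpG and zinc finger readers 9 were tested, and 5 were higher and 2 lower, with a median of 0.33. Mbd3, the NuRD relative of Mbd2 that binds methylated DNA poorly, fell from 94.3 ± 9.99 to 36.1 ± 1.34 FPKM (SD, n = 3 each), opposite to Mbd2, and had a log2 fold change of -1.36 (limma adjusted p = 4.7e-06). Trim28, the co-repressor of KRAB zinc finger proteins, fell by 1.502 on the log2 scale on FPKM and by 1.30 on counts. Zbtb38, a zinc finger reader of methylated DNA, rose by 0.97 on FPKM and 1.97 on counts.

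Of 17 genes of base excision and deamination, which complete demethylation after Tet, 14 were tested, and 6 were higher and 6 lower, with a median of 0.03. Gadd45g, a stress response gene linked to DNA demethylation, rose from 3.61, 4.35 and 5.23 FPKM in the controls to 93.4, 107 and 103 FPKM, with a log2 fold change of 4.25 on FPKM (limma adjusted p = 9.7e-08) and 4.67 on counts. Apobec1, a cytidine deaminase, rose from 1.03 ± 0.246 to 16.6 ± 0.513 FPKM (SD, n = 3 each). Lig3, the ligase that seals the repaired strand, fell with a log2 fold change of -1.96. Tdg, the glycosylase that removes oxidised methylcytosine, was chosen here for its role after its values were seen, and it fell from 6.84 to 2.26 FPKM in the group means (log2 fold change -1.25).

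Of 17 genes that supply methyl donor or 2-oxoglutarate, the co-substrate of the Tet enzymes, 13 were lower and 3 higher, with a median of -0.64. Shmt2, which feeds the folate cycle in mitochondria, fell from 214, 255 and 218 FPKM to 33.8, 37.4 and 35.0 FPKM (log2 fold change -2.66, limma adjusted p = 1.7e-07). Mthfd1, of the same cycle, and Idh2, which makes 2-oxoglutarate in mitochondria, fell by 1.95 and 1.87 on the log2 scale on FPKM and by 1.82 and 1.70 on counts. Of 12 recruiters and protectors of methylation 10 were tested, and 6 were lower and 0 higher by limma on FPKM, with a median of -0.67. At an unadjusted limma p under 0.05 1 was higher on FPKM, Kdm1b, which was at 0, 4.16 and 0 FPKM in the controls. On counts Kdm1b had a log2 fold change of -0.065. A different gene was the 1 that edgeR called higher on counts, the histone methyltransferase gene Setd2. On FPKM the log2 fold change of Setd2 was -0.0042 (limma adjusted p = 0.96). The histone methyltransferase gene Ehmt2, the CXXC zinc finger gene Cxxc5 and the demethylase gene Kdm2b had log2 fold changes of -1.19, -1.15 and -1.11.

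Of 20 S-phase genes, which mark replicating cells as Dnmt1 and Uhrf1 do, 14 were lower and 6 higher, where over all genes 44.2% were lower and 28.8% higher, with a median of -0.89. Their summed level was 660 to 697 FPKM in the controls and 501 to 519 FPKM in the shCTCF group, and its part in the lower levels of Dnmt1 and Uhrf1 was not tested. The replication helicase gene Mcm7 fell with a log2 fold change of -1.33 on FPKM, but it was at 0.06 on counts (edgeR adjusted p = 0.89), while the cyclin genes Ccne1 and Ccne2 rose by 2.01 and 1.53 on FPKM. Germline genes whose promoters are silenced by methylation in somatic cells stayed near 0. Of 16 listed, 15 had an FPKM value, all 15 were below 1 FPKM in every sample, and 7 were at 0 in all samples. Their summed level was 0.21 to 0.823 FPKM in the controls and 0.602 to 1.26 FPKM in the shCTCF group, which overlapped.

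**Figure D5:**
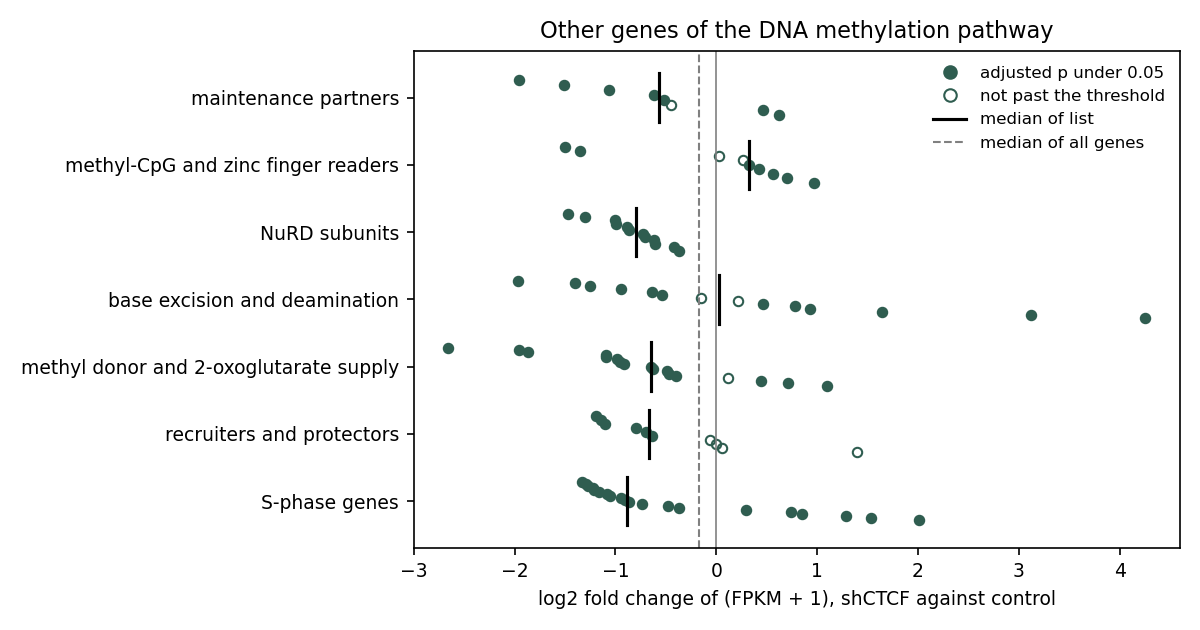
Log2 fold change of (FPKM + 1), shCTCF against control, of each tested gene in 7 of the 8 lists (no germline gene was tested). Filled points have a limma adjusted p under 0.05, short black lines are list medians and the dashed line is the median of all genes. All 12 NuRD subunits lie to the left of 0, and base excision and deamination genes lie on both sides.

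The genes with the most similar profile were found by the Euclidean distance of centred log2(FPKM + 1) over the 6 samples. The genes chosen here had the largest fall and rise on the log2(FPKM + 1) scale as deposited, where Dnmt1 (-1.85) and Dnmt3b (-1.84) were nearly level, as were Dnmt3l (0.73) and Mbd2 (0.71). With scaling to the same median Dnmt3b fell more than Dnmt1 (-1.73 and -1.67) and Mbd2 rose more than Dnmt3l (0.89 and 0.86). Nearest to Dnmt1 were Slc7a5, an amino acid transporter gene (distance 0.059), Samd1 (0.085) and Aldh18a1, of proline synthesis (0.105). Slc7a5 went from 303, 361 and 291 FPKM to 87.4, 88.9 and 87.0 FPKM. Nearest to Dnmt3l were Slc13a2 (0.303), Rnasek (0.355) and Hip1r (0.364), at larger distances.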

How the data were processed

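RNA-seq of 3 control and 3 shCTCF samples was used. Per the labels the libraries were stranded mRNA libraries, and the submitters' processing notes name HISAT2 4.8.2, the build mm9 and Cufflinks 2.2.1. The deposited FPKM values were made by the authors with Cufflinks per RefSeq accession and are normalized for depth and length. The authors made the deposited counts with featureCounts 1.6.2 (per the file header), as whole fragments per accession, without strand or normalization, and fragments over several accessions were not assigned. No value column was left without a sample.

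FPKM and counts were summed per symbol with a RefSeq gene table (GRCm38.p6, names only), which matched 41685 of 41876 FPKM rows and 41186 of 41388 count accessions. Genes whose mean reached 1 FPKM were tested on log2(FPKM + 1) with limma 3.58.1 (eBayes with trend), and counts with edgeR 4.0.16 (quasi-likelihood, TMM, filterByExpr, R 4.3.3). Two-sided p-values were adjusted over all genes tested (Benjamini-Hochberg), with a threshold of 0.05. Both tests were tried on simulated data. Replicates within groups differed beyond counting noise (chi-square per degree of freedom 2.07 to 8.17). The labels do not say whether same-numbered samples were paired. Their deviations correlated between -0.041 and 0.039 across genes on FPKM, which cannot settle the design. Replicate number was not used as a block in the main tests.

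The genes, the pathway lists and the marker lists were chosen with earlier results of these data known. Named were the 9 genes and Ctcf, up to 3 genes of each pathway list with the largest change on FPKM among those past the threshold, and the 3 genes nearest in profile to the gene that rose and the gene that fell most on log2(FPKM + 1). Pcna, Uhrf2, Setd2, Kdm1b, Tdg and the markers named were chosen after their values were seen. Alternatives were other pseudocounts, filters and scalings, DESeq2 1.42.0, the accession with the highest mean, the replicate block and the omission of each sample. The test of accession counts and the sums per start site were added after the data had been seen.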

Additional observations from a re-analysis of the deposited data

How the results depend on the processing

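Of 81 alternatives to the numbers of genes or accessions past the threshold and to the change of Ctcf, 77 kept the value within 1.5 times or the call. The exceptions were as follows. With the count table in place of FPKM, 2 of the 9 genes were past the threshold in place of 7. There 6 were not tested, Tet3 was tested and not past it (adjusted p = 0.19), and of the 2 calls Mbd2 was shared with FPKM and Tet1, not tested on FPKM, was not. With accession counts in edgeR, added after the data had been seen, 4 accessions were tested, of which both of Mbd2 and that of Tet1 were past it and that of Tet3 was not, so 3 were past it in place of 8. With each sample left out in turn, the 9 genes gave 6 to 7 calls on FPKM and 1 to 2 on counts, with 1 call without control replicate 3 or shCTCF replicate 1. The log2 fold change of Ctcf then lay between -5.16 and -5.08.

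Of 784 alternatives for single genes and accessions, 743 kept direction and call, 24 lost the call and 17 reversed, all of these without a call under either setting. Without 1 sample Tet2 lay between -0.031 and 0.038, and so did its accession NM_001040400. The upstream Dnmt1 accession NM_001199432 lay between -1.70 and 1.05, the latter without control replicate 2. On counts Mcm7 was at -0.11 with library size only and from -0.087 to 0.16 without 1 sample, and Mta3 was at 0.0038 with DESeq2, at 0.044 with RLE size factors, at 0.0016 without a filter and from -0.22 to 0.11 without 1 sample. The cause was not tested. The call of Cxxc5 on counts (adjusted p = 0.046 in edgeR) was lost under 10 of its alternatives. That of the Tet3 accession on FPKM was lost under 7.

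Deviations of same-numbered samples correlated between -0.041 and 0.039 across genes on FPKM. A replicate block gave 7 calls on FPKM and 2 on counts among the 9 genes, and the pathway lists had 81 and 43 calls. Depth limits genes with few fragments, such as Tet1 with 2 to 34 per sample, of which the 2 were in control replicate 2.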
